A study of Homo sapiens with 21 samples.

Results

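Fatty acid synthesis, elongation and activation is described here through 33 genes, chosen as a list of named enzymes, carriers and regulators. All 33 were found by symbol in both count tables, which hold 28008 genes each. They fall into 5 genes of acetyl-CoA and malonyl-CoA supply (SLC25A1, ACLY, ACSS2, ACACA, ACACB), fatty acid synthase with a lipogenic regulator (FASN, THRSP), 5 desaturases (SCD, SCD5, FADS1, FADS2, FADS3), 6 elongases (ELOVL1, ELOVL2, ELOVL4, ELOVL5, ELOVL6, ELOVL7), 5 other enzymes of the elongation cycle (HSD17B12, HACD1, HACD2, HACD3, TECR), 5 long-chain acyl-CoA synthetases (ACSL1, ACSL3, ACSL4, ACSL5, ACSL6) and 5 genes of fatty acid synthesis in mitochondria (MCAT, OXSM, MECR, CBR4, ACSF3).

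Cells build fatty acids in the cytosol from acetyl-CoA, which is carboxylated to malonyl-CoA and joined by fatty acid synthase into palmitate. Membrane enzymes of the endoplasmic reticulum then lengthen the chains and insert double bonds, and acyl-CoA synthetases attach coenzyme A to free fatty acids so that they can enter membrane lipids, storage lipids or oxidation. The choice of elongase, desaturase and synthetase sets which chain lengths and degrees of unsaturation a membrane can hold, and blood cell lineages differ in these enzymes.

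The RNA came from human leukaemia lines in 21 libraries of 7 groups, 3 libraries each, sequenced in 2 batches. OCI-AML3 is an acute myeloid leukaemia line and K562 an erythroleukaemia line, and all groups except K562 carry the OCI-AML3 label. Batch 1 held OCI-AML3 parental cells of genotype WT with no treatment given, OCI-AML3 WT cells with DMSO (vehicle), OCI-AML3 cells of genotype Res treated with StAMP, biological replicate 1 (labelled resistant 1 below), and K562 parental cells of genotype WT with no treatment given. Batch 2 held vehicle, labelled resistant 1 and biological replicate 2 of the same kind (labelled resistant 2). The study's title concerns stapled oncolytic peptides and what makes cancer cells susceptible to them, and the comparison of the Res and vehicle groups bears on what differs in cells that resist. The sources used here do not give the dose, the length of treatment, how the Res cells were derived or whether each is a clone.

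The 9 libraries labelled resistant had expression profiles close to K562, which goes against their cell line label, so K562 against OCI-AML3 parental is given beside the members' and lists' results. Over 11002 genes, log2 CPM (the count scaled to library size) of labelled resistant 1 in batch 1 correlated at 0.972 to 0.975 with K562 and at 0.521 to 0.524 with vehicle of its own batch. In batch 2 the values with K562 were lower, at 0.901 to 0.933 for labelled resistant 1 and 0.889 to 0.922 for labelled resistant 2. With vehicle of batch 2 they were 0.539 to 0.561 and 0.542 to 0.557. A sum of 15 erythroid markers was 4867 to 5001 CPM in K562 and 4953 to 5302 CPM in labelled resistant 1 of batch 1, 1706 to 1833 CPM in labelled resistant 1 and 1054 to 1561 CPM in labelled resistant 2 of batch 2, against 12.5 to 13.9 CPM in OCI-AML3 parental and 12.2 to 20.9 CPM in the vehicle groups. Of 15 markers of OCI-AML3 and myeloid cells, 13 were called lower and 2 (HOXB4 and ITGAM) higher in each comparison of labelled resistant and vehicle libraries, and 13 lower and 1 (HOXB4) higher in K562 against parental. HOXA9, MTAP and CDKN2A had 0 counts in K562 and in all 9 libraries labelled resistant, and the sum of the 15 was 159 to 265 CPM in those 9, 115 to 125 CPM in K562 and 2374 to 2926 CPM in the parental and vehicle libraries. A difference between cell lines and an effect of StAMP cannot be told apart in a comparison with vehicle. Total counts per library ran from 14066821 to 21091646 in batch 1 and from 30719771 to 51262668 in batch 2.

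Most of the 33 genes differed between the labelled resistant and vehicle libraries, in both directions, as most genes of the tables did. In labelled resistant 1 against vehicle of batch 1, 16 members were higher and 13 lower at an edgeR adjusted p under 0.05, 2 did not pass (ACSL4 and MCAT) and 2 (THRSP and ELOVL4) had too few counts to be tested. Of all genes tested there, 44% were called higher and 42.1% lower, and the median log2 fold change was 0.41 over the members against 0.02 over all genes. K562 against OCI-AML3 parental had 17 members higher and 12 lower beside 42.6% and 42.5% of all genes, with medians of 0.40 and 0.00. It compares other libraries, but the parental libraries also entered the fit of labelled resistant 1 against vehicle. In batch 2, labelled resistant 1 against vehicle had 14 higher and 14 lower members (39.9% and 35.8% of all genes, medians 0.0073 and 0.07). Labelled resistant 2 against the same vehicle libraries had 10 higher and 16 lower (40.2% and 35.9% of all genes, medians -0.30 and 0.07). Most genes of the tables were called in these 4 comparisons, so being called does not set the members apart. With genes of 3 or fewer counts in a group set at their bound or counting ratio, the 4 medians were the same. Those values stayed on the same side of the median and could not move it, so this is not a check. In these bulk samples, fewer cells of a type and less RNA per cell cannot be told apart.

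**Figure D1:**
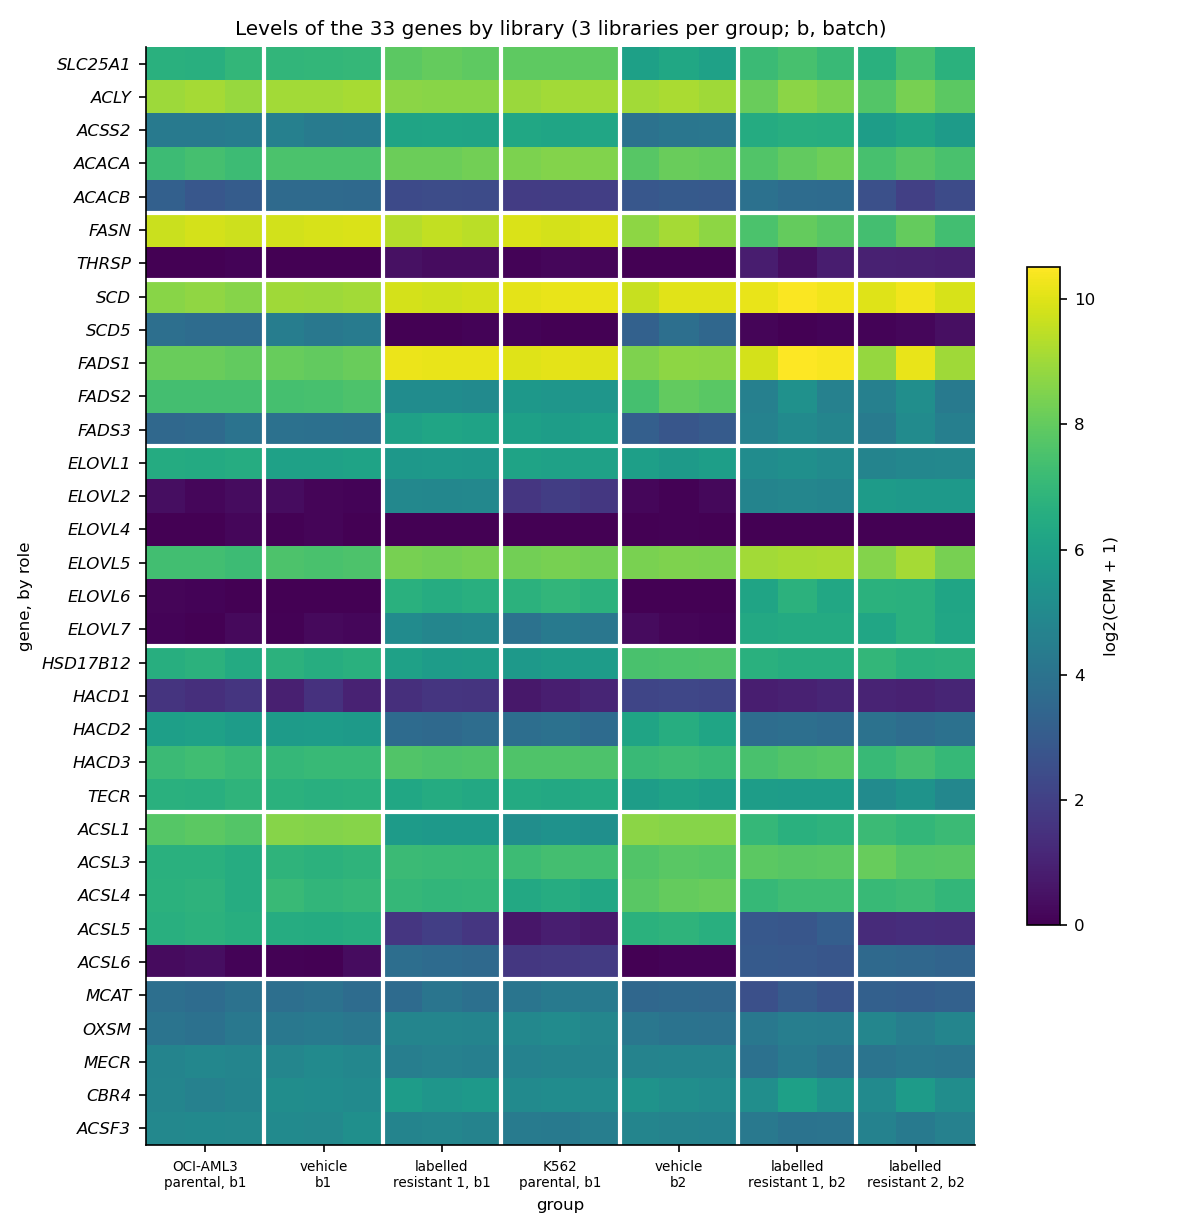
Level of each of the 33 genes, as log2(CPM + 1), in the 21 libraries, with genes in rows by role and 3 libraries per group in columns. The labelled resistant columns resemble those of K562, with ELOVL6 and ELOVL7 brighter and SCD5 darker than in parental and vehicle columns. Within batch 1 ELOVL2 is brighter in labelled resistant 1 than in K562.

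Of 31 members tested in all 3 comparisons with vehicle, 6 were called higher with a log2 fold change of at least 1 in each (ACSL6, ACSS2, ELOVL2, ELOVL6, ELOVL7 and FADS3), where 18.7% of all genes were. Another 5 were called lower by that measure (ACSL1, ACSL5, FADS2, HACD2 and SCD5), where 16.2% of all genes were, and both shares of members were near these backgrounds. Of these, ACSL6, ELOVL2, ELOVL6, ELOVL7 and SCD5 could enter the test only through groups where they were high, so their calls are a description. Without them, ACSS2 and FADS3 were higher and ACSL1, ACSL5, FADS2 and HACD2 lower. The shares of all genes were not limited in that way. Between labelled resistant 1 against vehicle in batch 1 and K562 against parental, 25 of 31 members were called with the same sign, beside 76.1% of all genes, and 2 (FASN and HACD1) with opposite signs. Between the batches of labelled resistant 1 against vehicle, 23 of 31 were called with the same sign, beside 66.7% of all genes, and 2 (ACACB and HACD1) with opposite signs. Values below are CPM in replicates 1, 2 and 3 of a group, in that order.

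**Figure D2:**
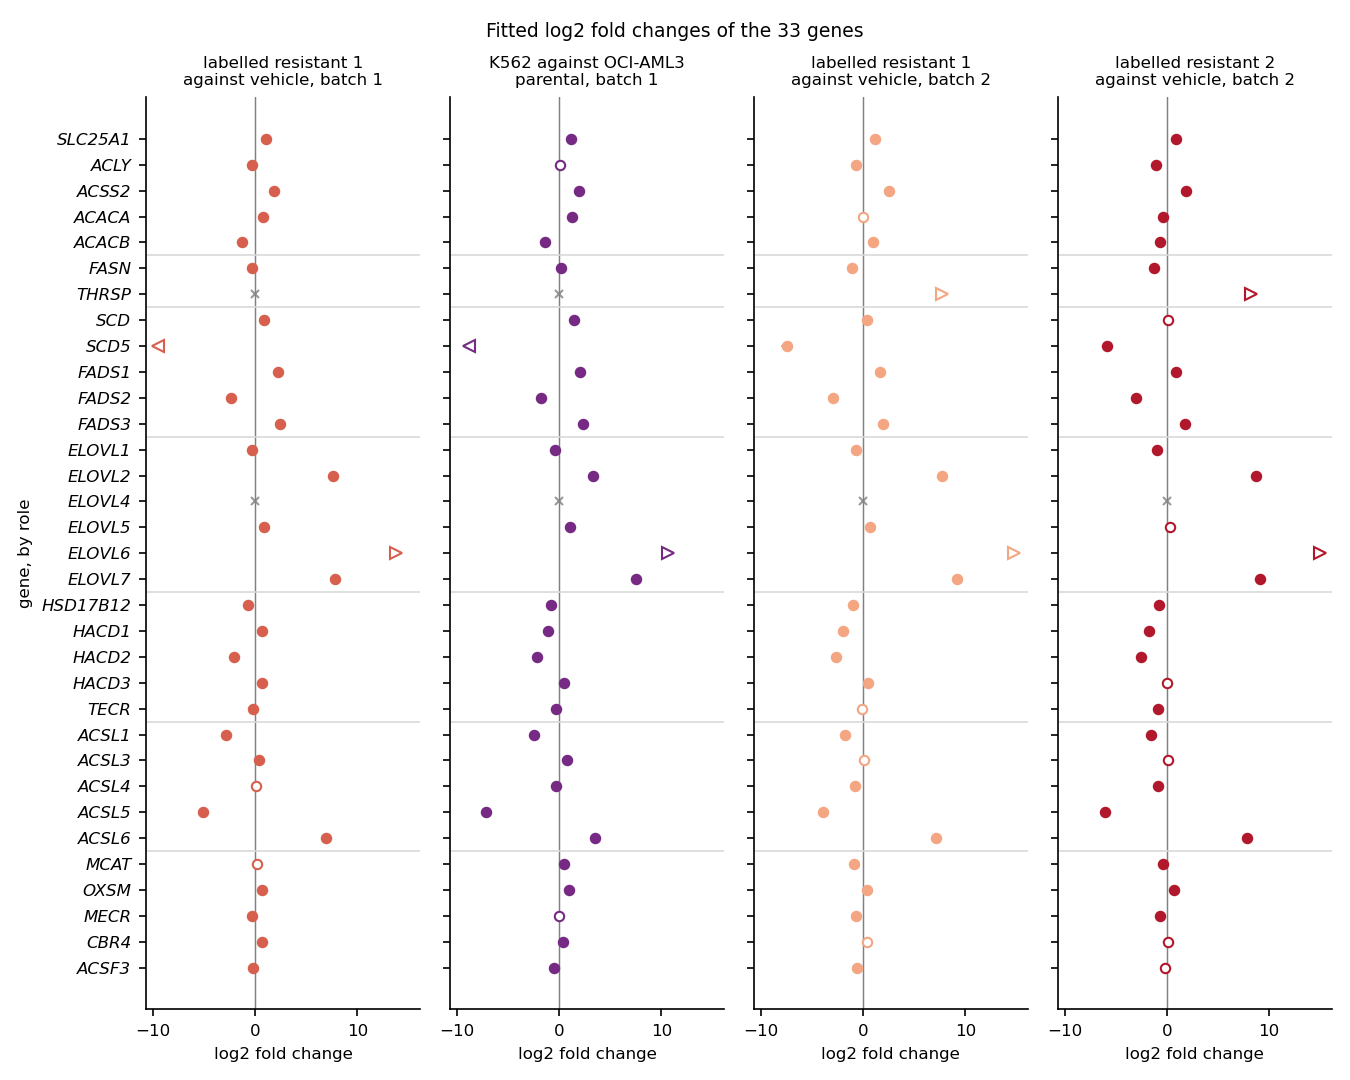
Fitted log2 fold change (horizontal axis) with its standard error for the 33 genes by role in 4 comparisons, where filled circles passed an adjusted p of 0.05 and open circles did not. Crosses mark genes not tested, and triangles mark genes with 3 or fewer counts in 1 group, whose fitted value depends on the prior count. ELOVL2, ELOVL6, ELOVL7 and ACSL6 lie far to the right and SCD5 and ACSL5 far to the left in all 4 panels.

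Supply of acetyl-CoA split by enzyme, with the acetate-activating enzyme and the citrate carrier higher and ATP citrate lyase lower in the labelled resistant libraries. ACSS2, which makes acetyl-CoA from acetate (chr20:34872146-34927962), had 22.7, 19.7 and 20.6 CPM in vehicle and 69.7, 72.2 and 70.5 CPM in labelled resistant 1 of batch 1. In batch 2 it had 14.7, 16.4 and 17.2 CPM in vehicle, 88.1, 95.3 and 92.5 CPM in labelled resistant 1 and 56.6, 70.6 and 54.4 CPM in labelled resistant 2. No vehicle library reached a labelled resistant library in either batch, and K562 (76.7, 72.0 and 73.9 CPM) exceeded OCI-AML3 parental (18.7, 18.7 and 20.5 CPM) in the same way. The log2 fold changes against vehicle were 1.84 (SE 0.069, adjusted p = 2.11e-19), 2.50 (SE 0.13, adjusted p = 1.73e-10) and, for labelled resistant 2, 1.90 (SE 0.13, adjusted p = 3.39e-09), and K562 against parental gave 1.97.

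SLC25A1, the mitochondrial citrate carrier, and ACLY, which splits citrate in the cytosol, moved in opposite directions. SLC25A1 averaged 124 ± 3.98 CPM (SD, n = 3) in vehicle and 244 ± 16.5 CPM in labelled resistant 1 of batch 1, a rise of 1.07 on the log2 scale, and rose by 1.15 and 0.90 in labelled resistant 1 and 2 of batch 2. ACLY changed by -0.32, -0.65 and -1.09 in the same comparisons, each passing the test. In K562 against parental SLC25A1 rose by 1.17, while ACLY was not called (0.057, adjusted p = 0.301).

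The acetyl-CoA carboxylases, which make malonyl-CoA, were called differently in the 2 batches. ACACA, the cytosolic form that feeds synthesis (chr17:37084992-37406836), had 146, 168 and 147 CPM in parental, 185, 185 and 183 CPM in vehicle, 286, 284 and 306 CPM in labelled resistant 1 and 349.7, 379 and 369.6 CPM in K562 of batch 1. Batch 2 gave 221, 279 and 262 CPM in vehicle, 200.3, 249.96 and 289.8 CPM in labelled resistant 1 and 175, 219 and 182 CPM in labelled resistant 2. All labelled resistant libraries of batch 1 were above vehicle, whereas in batch 2 labelled resistant 1 overlapped vehicle and labelled resistant 2 lay below it. The log2 fold change against vehicle was 0.75 (SE 0.052, adjusted p = 2.66e-13) in batch 1, -0.053 (SE 0.14, adjusted p = 0.751) in batch 2 and -0.42 (SE 0.14, adjusted p = 0.0161) for labelled resistant 2. That last call ended without vehicle replicate 2 (-0.33, adjusted p = 0.0755) or 3 (-0.39, adjusted p = 0.0519) and without labelled resistant 2 replicate 1 (-0.35, adjusted p = 0.0686) or 3 (-0.38, adjusted p = 0.0539).

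ACACB, the mitochondrial-membrane form whose malonyl-CoA restrains fatty acid import into mitochondria (chr12:109116587-109268226), was low in every group. It had 8.25, 6.23 and 7.45 CPM in parental, 11.3, 11.3 and 11.2 CPM in vehicle, 4.18, 4.46 and 4.22 CPM in labelled resistant 1 and 2.63, 2.77 and 2.86 CPM in K562 of batch 1. In batch 2 the vehicle libraries had 6.18, 6.89 and 6.76 CPM, labelled resistant 1 14.1, 12.0 and 11.9 CPM and labelled resistant 2 4.99, 2.96 and 4.36 CPM. Labelled resistant 1 lay below vehicle in batch 1 and above it in batch 2, with no overlap in either. ACACB thus fell in batch 1 (-1.31, SE 0.12, adjusted p = 1.33e-10), rose in labelled resistant 1 of batch 2 (0.93, SE 0.19, adjusted p = 0.000482) and fell in labelled resistant 2 (-0.70, SE 0.20, adjusted p = 0.00482). The difference of the labelled resistant 1 fold change between batches was 2.22 (SE 0.18, adjusted p = 1.13e-07). In K562 against parental it fell (-1.38).

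FASN, which assembles palmitate, was among the most abundant members and lower in each labelled resistant group. It averaged 941 ± 39.9 CPM in vehicle against 692 ± 52.8 CPM in labelled resistant 1 of batch 1, and 465 ± 68.5 CPM in vehicle against 219.6 ± 37.2 and 195 ± 58.6 CPM in labelled resistant 1 and 2 of batch 2. The log2 fold changes were -0.36 (SE 0.05, adjusted p = 3.08e-07), -1.09 (SE 0.19, adjusted p = 0.000118) and -1.27 (SE 0.19, adjusted p = 3.08e-05). K562 against parental went the other way by a small step (0.19, SE 0.048, adjusted p = 0.00136). THRSP, a nuclear protein that promotes lipogenic transcription in liver and fat, was near the limit of detection, with 0 counts in all 6 vehicle libraries and 0.325 to 0.931 CPM in the labelled resistant libraries of batch 2. There it was at least 24.7-fold higher in labelled resistant 1 and at least 34.7-fold higher in labelled resistant 2, against a floor of 3 counts over the vehicle libraries. It could enter the test only through the groups where it was high, and in batch 1 it was not tested.

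Among the desaturases, SCD5 was near 0 in the labelled resistant libraries, FADS2 fell and FADS1 and FADS3 rose. SCD, the main stearoyl-CoA desaturase, which makes monounsaturated chains (chr10:100347233-100364826), had the highest CPM per kilobase of exon among the members in 5 of the 7 groups. Its levels in batch 1 were 404, 437 and 384 CPM in parental, 519, 509 and 532 CPM in vehicle, 903, 866 and 902 CPM in labelled resistant 1 and 1087, 1134 and 1139 CPM in K562. In batch 2 they were 788, 1058 and 1042 CPM in vehicle, 1157, 1414 and 1267 CPM in labelled resistant 1 and 1018, 1252 and 930.4 CPM in labelled resistant 2. Labelled resistant 1 stood above vehicle in both batches and labelled resistant 2 overlapped it. SCD rose by 0.86 (SE 0.046, adjusted p = 8.53e-16) in batch 1 and by 0.40 (SE 0.14, adjusted p = 0.0209) in batch 2, was not called in labelled resistant 2 (0.14, SE 0.14, adjusted p = 0.401) and rose in K562 against parental (1.48). The batch 2 call ended without vehicle replicate 1 (0.29, adjusted p = 0.0948) or labelled resistant 1 replicate 2 (0.33, adjusted p = 0.0744).

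SCD5, another stearoyl-CoA desaturase found in primates but not in rodents (chr4:82629539-82798796), was high in parental and vehicle and near 0 in K562 and in the libraries labelled resistant. It had 13.3, 12.2 and 12.3 CPM in parental and 21.0, 17.3 and 19.9 CPM in vehicle of batch 1, against 0, 0 and 0.0670 CPM in labelled resistant 1 and 0.0675, 0 and 0 CPM in K562. In batch 2 vehicle had 8.54, 13.4 and 10.6 CPM, labelled resistant 1 0.0985, 0 and 0.0653 CPM and labelled resistant 2 0.0846, 0.135 and 0.342 CPM. Labelled resistant 1 of batch 1 and K562 held 1 count each in all 3 libraries. Vehicle against labelled resistant 1 therefore gave a ratio of 1054 (95% counting interval 189 to 41655), and parental against K562 a ratio of 635 (114 to 25132). In batch 2 the log2 fold changes were -7.50 (SE 0.51) and -5.84 (SE 0.42).

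FADS2, the desaturase at the entry to polyunsaturated chains (chr11:61792980-61867354), was lower wherever the profile was like K562. Parental libraries had 166, 163 and 167 CPM, vehicle 168, 176 and 189.6 CPM, labelled resistant 1 33.9, 33.9 and 31.6 CPM and K562 47.6, 45.6 and 45.4 CPM in batch 1. Batch 2 showed 169.8, 256 and 223 CPM in vehicle, 22.6, 38.6 and 23.9 CPM in labelled resistant 1 and 22.8, 35.5 and 18.9 CPM in labelled resistant 2. The groups did not overlap, and the log2 fold changes were -2.33 (SE 0.059, adjusted p = 2.41e-23), -2.94 (SE 0.27, adjusted p = 1.24e-06) and -3.08 (SE 0.28, adjusted p = 8.29e-07), beside -1.81 in K562 against parental. FADS3, its neighbour with a reported action on sphingolipids (chr11:61873519-61892051), moved the other way.

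FADS3 libraries held 10.9, 11.5 and 15.1 CPM in parental, 14.4, 13.9 and 13.2 CPM in vehicle, 64.7, 72.6 and 67.6 CPM in labelled resistant 1 and 61.8, 56.6 and 61.7 CPM in K562. Batch 2 had 8.19, 6.07 and 7.19 CPM in vehicle, 24.3, 31.5 and 26.8 CPM in labelled resistant 1 and 19.5, 32.4 and 22.3 CPM in labelled resistant 2. Again no library of a labelled resistant group fell to the vehicle range, and FADS3 rose by 2.39 (SE 0.086, adjusted p = 1.1e-19), 1.93 (SE 0.19, adjusted p = 3.8e-07) and 1.77 (SE 0.19, adjusted p = 9.05e-07), beside 2.30 in K562 against parental. FADS1, which acts later in that pathway, averaged 264 ± 9.18 CPM in vehicle and 1164 ± 17.6 CPM in labelled resistant 1 of batch 1 (log2 fold change 2.23), and rose by 1.64 in batch 2 and by 2.00 in K562 against parental. Labelled resistant 2 had 460.0, 1159 and 517 CPM of FADS1 against 356, 418 and 417 CPM in vehicle, so replicate 2 stood above the other two, and the call (0.83, SE 0.32, adjusted p = 0.0354) ended without it (0.29, adjusted p = 0.13), without any 1 vehicle library (0.77 to 0.88), with no filter on low counts (0.84, adjusted p = 0.105) and in DESeq2 (0.84, adjusted p = 0.0521). FADS1 and FADS2 lie head to head on opposite strands of chromosome 11 with 5.57% and 5.11% of their exonic bases overlapping another gene. Because no source used here states the strand setting of the counting, reads in such bases are of uncertain origin.

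Of the elongases, ELOVL2, ELOVL6 and ELOVL7 had few or 0 counts in OCI-AML3 parental and vehicle and were abundant in the labelled resistant libraries. Upstream sequence is shown for these 3 and for SCD5, which moved the opposite way, because their RNA was nearly absent from some groups. The windows come from the RefSeq promoter table (GRCh38.p14), run 5′ to 3′ on the gene's own strand toward the transcription start, and leave out bases that GENCODE annotates as exon. The ELOVL6 window lies upstream of its RefSeq start but within the ELOVL6 gene as GENCODE annotates it (chr4:110045846-110199199). Capitals mark a match to CCAAT, the box bound by NF-Y, on either strand, which only the SCD5 window held.
ELOVL2 (chr6:11044306-11044512, minus strand): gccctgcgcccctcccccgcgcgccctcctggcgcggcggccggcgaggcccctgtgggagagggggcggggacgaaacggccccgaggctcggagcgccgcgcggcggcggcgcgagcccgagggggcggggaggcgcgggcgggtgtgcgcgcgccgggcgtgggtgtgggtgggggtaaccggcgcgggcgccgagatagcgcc
ELOVL6 (chr4:110198654-110198841, minus strand): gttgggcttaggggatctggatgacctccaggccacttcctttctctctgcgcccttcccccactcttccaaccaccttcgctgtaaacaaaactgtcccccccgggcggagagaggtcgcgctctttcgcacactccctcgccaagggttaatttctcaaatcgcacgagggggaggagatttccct
ELOVL7 (chr5:60844275-60844519, minus strand): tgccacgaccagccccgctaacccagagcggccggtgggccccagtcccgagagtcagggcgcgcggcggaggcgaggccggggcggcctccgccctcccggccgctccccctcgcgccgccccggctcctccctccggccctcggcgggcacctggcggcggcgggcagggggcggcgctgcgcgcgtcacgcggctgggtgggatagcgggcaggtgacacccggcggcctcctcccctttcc
SCD5 (chr4:82798797-82799046, minus strand): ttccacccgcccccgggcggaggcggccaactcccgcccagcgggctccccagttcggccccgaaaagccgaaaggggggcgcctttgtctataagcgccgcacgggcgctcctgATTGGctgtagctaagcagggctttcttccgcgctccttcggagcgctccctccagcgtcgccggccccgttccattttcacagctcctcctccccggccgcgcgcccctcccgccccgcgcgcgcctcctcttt

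Over their full windows of 300 bases in that table, ELOVL2, ELOVL7 and SCD5 had 83.7%, 80.7% and 70.7% G and C with 52, 44 and 36 CpG dinucleotides, and ELOVL6 had 57.3% with 20. The median over all 35097 windows of that length was 58.7% with 14 CpG. The table held 52 windows for 30 of the 33 members and none for FASN, OXSM and HSD17B12. The sterol response element TCACNCCAC was found in 2 of the 52 windows, or 3.85% (1 each of ACSL1 and ACSL6), beside 1.13% of all windows. The E-box CACGTG was found in 2 (3.85%, ELOVL4 and ELOVL5), beside 7.25% of all windows, and CCAAT in 21 (40.4%), beside 34.6%. Both strands were searched, windows of 1 gene can overlap, and a match is a run of letters only.

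ELOVL6, which lengthens palmitate to stearate (chr4:110045846-110199199), had 0 counts in all 6 vehicle libraries. The parental libraries had 0.120, 0.0656 and 0 CPM, labelled resistant 1 of batch 1 99.9, 89.0 and 99.5 CPM and K562 108, 119.5 and 108 CPM. In batch 2 labelled resistant 1 had 69.8, 106 and 77.4 CPM and labelled resistant 2 104, 102 and 72.4 CPM. Against a floor of 3 counts over the vehicle libraries, ELOVL6 was at least 1681-fold higher in labelled resistant 1 of batch 1, at least 3263-fold higher in batch 2 and at least 3623-fold higher in labelled resistant 2. With 0 counts in vehicle, ELOVL6 could enter the test only through the groups where it was high, so no p-value is given. That limit holds also for ELOVL2, ELOVL7 and ACSL6, with at most 11 counts in any vehicle or parental library, and, in the opposite direction, for SCD5, with at most 16 counts in any labelled resistant or K562 library. For these genes too, no p-value is given against vehicle or for K562 against parental, and their calls there are a description. Their standard errors come from the same fits and can understate the error of counting so few reads. Over the vehicle libraries of batch 1 and 2, ELOVL2 had 8 and 14 counts, ELOVL7 7 and 17 and ACSL6 5 and 5. For ELOVL6, K562 against the 3 counts of parental gave a ratio of 1729 (95% counting interval 591 to 8388).

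ELOVL2, which lengthens polyunsaturated chains toward docosahexaenoate (chr6:10980759-11044305), separated labelled resistant 1 from K562 in batch 1. In both batches it separated the labelled resistant libraries from vehicle. It had 0.301, 0.131 and 0.273 CPM in parental, 0.282, 0.0991 and 0.0685 CPM in vehicle, 29.0, 28.5 and 29.3 CPM in labelled resistant 1 and 2.16, 2.77 and 2.29 CPM in K562 of batch 1. In batch 2 vehicle held 0.128, 0.0528 and 0.185 CPM, labelled resistant 1 26.2, 27.6 and 25.7 CPM and labelled resistant 2 53.7, 49.0 and 51.1 CPM. Within batch 1 the levels increased from vehicle to K562 to labelled resistant 1, and within batch 2 from vehicle to labelled resistant 1 to labelled resistant 2, with no overlap at either step. The log2 fold changes against vehicle were 7.59 (SE 0.20), 7.74 (SE 0.22) and 8.69 (SE 0.22), and K562 against parental gave 3.33 (SE 0.35). Labelled resistant 1 exceeded K562 by 3.59 (SE 0.11, adjusted p = 7.58e-17) within batch 1.

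ELOVL7, which acts on saturated and monounsaturated long chains (chr5:60751791-60844274), followed a similar order. Its batch 1 levels were 0.0602, 0 and 0.205 CPM in parental, 0.0564, 0.198 and 0.137 CPM in vehicle, 32.2, 27.6 and 29.2 CPM in labelled resistant 1 and 14.6, 18.4 and 16.8 CPM in K562. Batch 2 levels were 0.235, 0.106 and 0.0617 CPM in vehicle, 80.3, 85.4 and 86.3 CPM in labelled resistant 1 and 74.6, 101 and 73.3 CPM in labelled resistant 2. Within batch 1 all labelled resistant libraries lay above all K562 libraries, and in both batches they lay above vehicle without overlap. ELOVL7 rose by 7.81 (SE 0.22), 9.15 (SE 0.26) and 9.12 (SE 0.26) against vehicle and by 7.50 (SE 0.29) in K562 against parental.

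**Figure D3:**
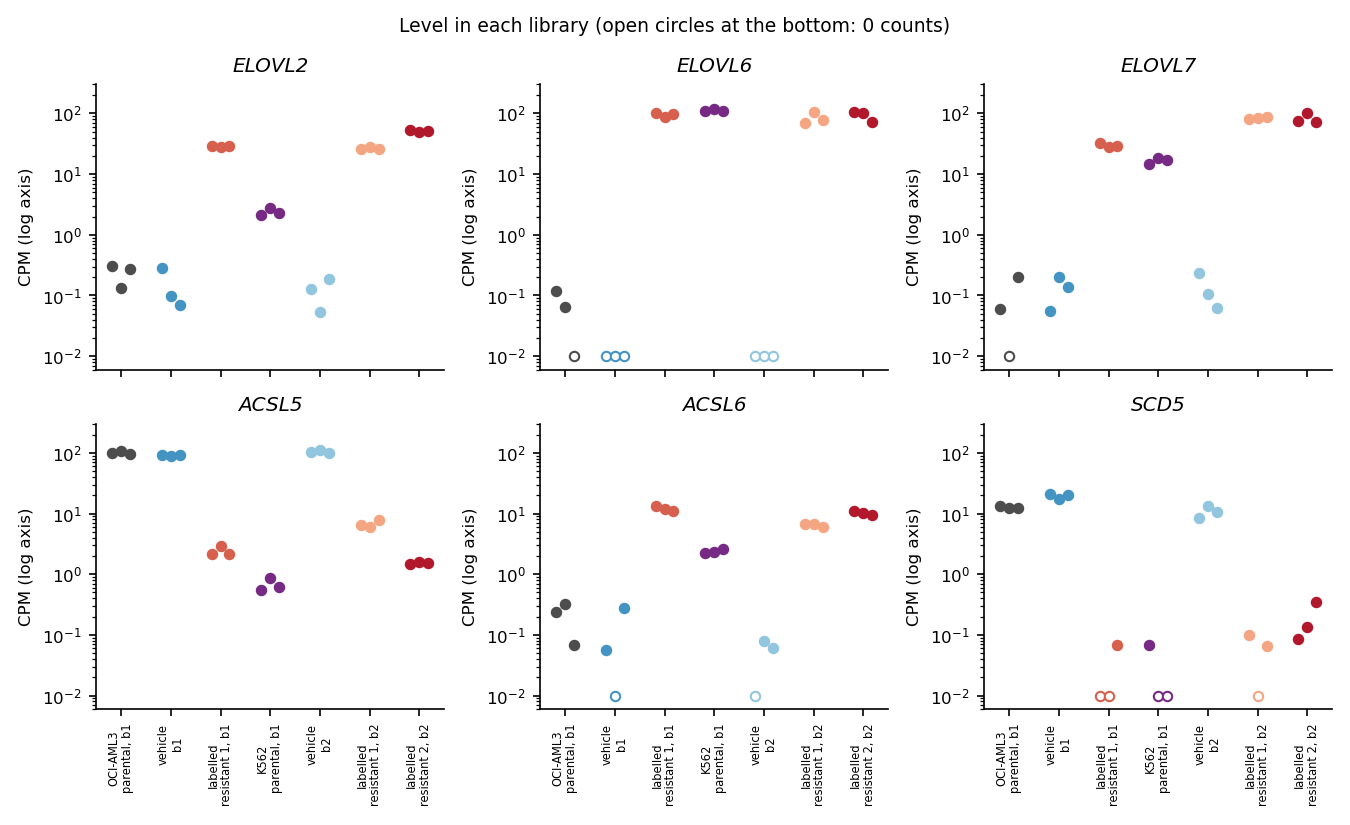
CPM on a log axis in each of the 21 libraries for 6 genes, with 3 points per group and open circles at the bottom for libraries with 0 counts. ELOVL2 and ACSL6 stand higher in the labelled resistant libraries than in K562, ACSL5 stands between the vehicle and K562 levels, and SCD5 is near 0 in K562 and in the labelled resistant libraries.

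The 2 elongases that all groups expressed moved in opposite directions. ELOVL5, which lengthens polyunsaturated chains (chr6:53267398-53349179), had 161, 162 and 148 CPM in parental, 190.3, 178 and 188 CPM in vehicle, 329, 311 and 327 CPM in labelled resistant 1 and 307, 324 and 308 CPM in K562. In batch 2 it had 336, 357 and 352 CPM in vehicle, 532, 561.57 and 588 CPM in labelled resistant 1 and 378, 548 and 331 CPM in labelled resistant 2, of which only labelled resistant 2 overlapped vehicle. ELOVL5 rose by 0.88 (SE 0.049, adjusted p = 1.84e-15) and 0.68 (SE 0.15, adjusted p = 0.000967) in labelled resistant 1, was not called in labelled resistant 2 (0.25, SE 0.15, adjusted p = 0.141) and rose by 1.02 in K562 against parental. Without labelled resistant 2 replicate 3 it was called there too (0.40, adjusted p = 0.0233).

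ELOVL1, which extends very long saturated chains for sphingolipids (chr1:43363398-43368074), had 87.2, 85.6 and 91.2 CPM in parental, 63.6, 63.4 and 66.7 CPM in vehicle, 47.7, 49.9 and 47.5 CPM in labelled resistant 1 and 66.7, 64.0 and 64.5 CPM in K562. Batch 2 libraries held 59.4, 51.5 and 57.8 CPM in vehicle, 33.9, 36.3 and 32.8 CPM in labelled resistant 1 and 26.1, 28.3 and 28.7 CPM in labelled resistant 2. Every labelled resistant library was below every vehicle library of its batch, and ELOVL1 changed by -0.33 (SE 0.057, adjusted p = 7.35e-06), -0.72 (SE 0.11, adjusted p = 3.13e-05) and -1.03 (SE 0.11, adjusted p = 7.97e-07), beside -0.41 in K562 against parental. ELOVL4, the elongase of very long polyunsaturated chains in retina and skin, had at most 0.137 CPM in a library, with 0 counts in K562 and in labelled resistant 1 of both batches, and was not tested in any comparison.

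Each elongation round needs a ketoreductase, a dehydratase and an enoyl reductase besides the elongase, and of the 5 enzymes 2, 1 and 0 rose and 3, 3 and 4 fell in labelled resistant 1 of batch 1, of batch 2 and in labelled resistant 2. Of all genes 44%, 39.9% and 40.2% were called higher and 42.1%, 35.8% and 35.9% lower in the same order, and K562 against parental had 1 of the 5 higher and 4 lower. The dehydratase HACD2 (chr3:123490820-123585053) had 60.9, 64.6 and 56.0 CPM in parental, 53.8, 55.0 and 51.6 CPM in vehicle, 11.7, 11.2 and 12.6 CPM in labelled resistant 1 and 12.9, 14.3 and 11.9 CPM in K562. In batch 2 vehicle had 69.7, 93.9 and 71.3 CPM, labelled resistant 1 12.6, 13.1 and 12.0 CPM and labelled resistant 2 14.7, 12.5 and 14.3 CPM. With no overlap in any of them, HACD2 changed by -2.09 (SE 0.076, adjusted p = 1.21e-19), -2.65 (SE 0.14, adjusted p = 2.91e-10) and -2.51 (SE 0.14, adjusted p = 4.67e-10), and by -2.19 in K562 against parental.

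HACD3, a widely expressed dehydratase of the same family (chr15:65530418-65578349), rose in labelled resistant 1. It had 144, 155 and 138 CPM in parental, 128, 134 and 135 CPM in vehicle, 199.6, 190.0 and 198 CPM in labelled resistant 1 and 194, 196 and 189 CPM in K562. In batch 2 it had 139, 147 and 135 CPM in vehicle, 177, 199 and 214 CPM in labelled resistant 1 and 136, 165 and 132 CPM in labelled resistant 2, the last overlapping vehicle. HACD3 rose by 0.65 (SE 0.051, adjusted p = 3.48e-12) and 0.48 (SE 0.11, adjusted p = 0.00152) in labelled resistant 1 and was not called in labelled resistant 2 (0.028, SE 0.11, adjusted p = 0.83), and it rose by 0.44 in K562 against parental.

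HACD1, the dehydratase of muscle and heart (chr10:17589032-17617374), was the least expressed of the 3. It had 1.99, 1.64 and 2.12 CPM in parental, 0.902, 1.83 and 1.03 CPM in vehicle, 1.66, 2.04 and 2.01 CPM in labelled resistant 1 and 0.607, 0.861 and 1.14 CPM in K562. Batch 2 had 3.59, 3.75 and 3.61 CPM in vehicle, 0.867, 0.926 and 1.11 CPM in labelled resistant 1 and 1.08, 0.948 and 1.15 CPM in labelled resistant 2. The batch 1 groups overlapped, while in batch 2 all vehicle libraries were above all labelled resistant libraries. HACD1 was called higher in batch 1 (0.64, SE 0.26, adjusted p = 0.0246) and lower in batch 2, at -1.93 (SE 0.24, adjusted p = 4.08e-06) and -1.79 (SE 0.24, adjusted p = 7e-06), and lower in K562 against parental (-1.07, SE 0.28, adjusted p = 0.00162). The batch 1 call ended in DESeq2 (0.65, adjusted p = 0.0562) and without vehicle replicate 1 (0.42) or 3 (0.51) or labelled resistant 1 replicate 2 (0.57) or 3 (0.59).

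TECR, the enoyl reductase that closes the cycle (chr19:14517085-14565980), had 101, 99.4 and 114 CPM in parental, 104, 99.1 and 102 CPM in vehicle, 76.6, 87.6 and 81.2 CPM in labelled resistant 1 and 86.3, 79.4 and 84.6 CPM in K562. Its batch 2 levels were 57.4, 66.2 and 57.7 CPM in vehicle, 56.1, 55.3 and 55.8 CPM in labelled resistant 1 and 32.5, 41.3 and 27.9 CPM in labelled resistant 2. Labelled resistant 2 stood apart at the low end, and TECR fell there (-0.85, SE 0.14, adjusted p = 5.01e-05) and in batch 1 (-0.23, SE 0.06, adjusted p = 0.00106) but was not called in labelled resistant 1 of batch 2 (-0.13, SE 0.13, adjusted p = 0.404). K562 against parental gave a fall as well (-0.30). Of its exonic bases, 8.9% overlap DNAJB1 on the opposite strand. HSD17B12, the ketoreductase, fell by 0.70, 0.97 and 0.75 on the log2 scale in the 3 comparisons and by 0.81 in K562 against parental, and 21.9% of its exonic bases overlap other annotated genes.

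Among the long-chain acyl-CoA synthetases, ACSL1 and ACSL5 fell and ACSL6 rose in every comparison with vehicle. ACSL1, the abundant form of liver, fat and activated myeloid cells (chr4:184755595-184826818), had 211, 229 and 208 CPM in parental, 392, 378 and 388 CPM in vehicle, 53.1, 50.1 and 50.5 CPM in labelled resistant 1 and 35.3, 40.0 and 37.2 CPM in K562. In batch 2 it had 416, 384 and 389 CPM in vehicle, 128, 99.9 and 111 CPM in labelled resistant 1 and 142, 125 and 143 CPM in labelled resistant 2. No labelled resistant library came near vehicle, and the log2 fold changes were -2.82 (SE 0.053, adjusted p = 3.61e-26), -1.82 (SE 0.12, adjusted p = 2.17e-09) and -1.55 (SE 0.12, adjusted p = 1.27e-08), beside -2.50 in K562 against parental.

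ACSL5, a synthetase of the endoplasmic reticulum and mitochondria known from intestine (chr10:112374116-112428379), showed the steepest fall among members with counts in every library. It had 98.4, 107 and 94.7 CPM in parental, 91.5, 87.4 and 92.7 CPM in vehicle, 2.14, 2.90 and 2.15 CPM in labelled resistant 1 and 0.540, 0.861 and 0.624 CPM in K562. Batch 2 had 103, 113 and 99.7 CPM in vehicle, 6.37, 5.95 and 7.93 CPM in labelled resistant 1 and 1.46, 1.60 and 1.54 CPM in labelled resistant 2. Within batch 1 labelled resistant 1 lay between K562 and the vehicle and parental libraries, and within batch 2 labelled resistant 2 lay below labelled resistant 1 and both below vehicle. ACSL5 changed by -5.15 (SE 0.10, adjusted p = 3.14e-26), -3.98 (SE 0.14, adjusted p = 2.38e-12) and -6.11 (SE 0.16, adjusted p = 1.45e-13) against vehicle and by -7.16 (SE 0.12, adjusted p = 6.66e-22) in K562 against parental.

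ACSL6, a synthetase of brain and erythroid cells that favours polyunsaturated chains (chr5:131949973-132012243), had 0.241, 0.328 and 0.0684 CPM in parental, 0.0564, 0 and 0.274 CPM in vehicle, 13.1, 11.8 and 11.1 CPM in labelled resistant 1 and 2.23, 2.34 and 2.60 CPM in K562. The levels of batch 2 were 0, 0.0792 and 0.0617 CPM in vehicle, 6.82, 6.63 and 6.07 CPM in labelled resistant 1 and 11.1, 10.3 and 9.5041 CPM in labelled resistant 2. Within batch 1 labelled resistant 1 was above K562 and K562 above vehicle and parental, without overlap. ACSL6 rose by 6.96 (SE 0.31), 7.14 (SE 0.38) and 7.80 (SE 0.38) against vehicle and by 3.46 (SE 0.37) in K562 against parental. Another annotated gene on the same strand covers 12.6% of its exonic bases.

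ACSL4, which prefers arachidonate and is known for its part in ferroptosis (chrX:109624244-109733403), was called against vehicle in batch 2 and not in batch 1. It had 104, 111 and 91.5 CPM in parental, 139, 122 and 127 CPM in vehicle, 127, 119 and 126 CPM in labelled resistant 1 and 80.6, 90.033 and 78.9 CPM in K562. The batch 2 libraries had 223, 264 and 274 CPM in vehicle, 131, 149.7 and 152 CPM in labelled resistant 1 and 135, 147 and 125 CPM in labelled resistant 2. The groups overlapped in batch 1 and not in batch 2, with log2 fold changes of 0.027 (SE 0.062, adjusted p = 0.689), -0.82 (SE 0.11, adjusted p = 1.18e-05) and -0.91 (SE 0.11, adjusted p = 4.07e-06). The difference of the labelled resistant 1 fold change between batches passed the test (-0.87, SE 0.12, adjusted p = 3.68e-05). ACSL4 fell in K562 against parental (-0.27).

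ACSL3, the synthetase of lipid droplets (chr2:222860942-222944639), differed from vehicle in batch 1. It had 101, 100.1 and 91.1 CPM in parental, 115, 107 and 112 CPM in vehicle, 144, 138 and 135 CPM in labelled resistant 1 and 147, 164 and 161 CPM in K562, and in batch 2 203, 226 and 213 CPM in vehicle, 233, 221 and 223 CPM in labelled resistant 1 and 266, 216 and 219 CPM in labelled resistant 2. Vehicle and labelled resistant 1 did not overlap in batch 1, and ACSL3 rose there (0.41, SE 0.053, adjusted p = 6.83e-08) but was not called in batch 2, at 0.067 (SE 0.11, adjusted p = 0.587) and 0.12 (SE 0.11, adjusted p = 0.343). In K562 against parental it rose by 0.72.

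Mitochondria run a separate fatty acid synthesis that supplies lipoate, and none of its 5 genes changed by 1 or more on the log2 scale against vehicle. CBR4, a subunit of its ketoreductase (chr4:168863770-169010275), had 26.9, 23.8 and 25.6 CPM in parental, 35.1, 34.0 and 32.1 CPM in vehicle, 54.5, 45.1 and 50.4 CPM in labelled resistant 1 and 31.9, 34.0 and 32.8 CPM in K562. In batch 2 it had 41.0, 35.7 and 32.8 CPM in vehicle, 35.8, 61.4 and 41.7 CPM in labelled resistant 1 and 31.8, 53.5 and 34.4 CPM in labelled resistant 2, with replicate 2 the highest in each labelled resistant group. CBR4 rose in batch 1 (0.66, SE 0.074, adjusted p = 5.02e-09) and was not called in batch 2, at 0.33 (SE 0.21, adjusted p = 0.173) and 0.11 (SE 0.21, adjusted p = 0.635), and it rose in K562 against parental (0.40).

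ACSF3, which activates malonate for the mitochondrial pathway (chr16:89088375-89164121), had 28.9, 30.4 and 30.3 CPM in parental, 31.4, 30.1 and 36.7 CPM in vehicle, 25.9, 27.0 and 25.0 CPM in labelled resistant 1 and 19.7, 18.8 and 21.3 CPM in K562. Batch 2 libraries held 26.4, 25.1 and 24.5 CPM in vehicle, 18.3, 15.2 and 15.3 CPM in labelled resistant 1 and 24.4, 18.4 and 23.9 CPM in labelled resistant 2. Labelled resistant 1 was below vehicle in both batches, and ACSF3 changed by -0.24 (SE 0.078, adjusted p = 0.00613) and -0.65 (SE 0.14, adjusted p = 0.000722), while labelled resistant 2 was not called (-0.20, SE 0.14, adjusted p = 0.205). OXSM, the mitochondrial condensing enzyme, rose by 0.67, 0.37 and 0.69, and MECR, the enoyl reductase, changed by -0.29, -0.69 and -0.65. MCAT, the malonyl transferase, was not called in batch 1 (0.14) and fell in batch 2 (-0.88 and -0.40). In K562 against parental MCAT went the other way (0.43), OXSM rose (0.94), ACSF3 fell (-0.55) and MECR was not called (-0.04, adjusted p = 0.628). The rise of OXSM in batch 2 ended without vehicle replicate 2 (0.36) or 3 (0.33) or labelled resistant 1 replicate 2 (0.31) or 3 (0.35), and the fall of MCAT in labelled resistant 2 ended without any 1 of the 3 vehicle (-0.36 to -0.40) or 3 labelled resistant 2 libraries (-0.35 to -0.43), without labelled resistant 1 replicate 3 (-0.39) and with no filter on low counts (-0.39). NGLY1 on the opposite strand covers 21.6% of the exonic bases of OXSM.

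Per length, the make-up of the elongase, desaturase and synthetase families differed between groups. Here CPM were divided by the kilobases of annotated exon, summed over a family and averaged over 3 libraries (± SD). In vehicle of batch 1, ELOVL5 made up 65.3 ± 0.786% and ELOVL1 34.6 ± 0.803% of the elongase sum. In labelled resistant 1 of batch 1, ELOVL5 made up 64.5 ± 0.303%, ELOVL1 held 14.8 ± 0.789%, ELOVL6 10.1 ± 0.400%, ELOVL2 5.55 ± 0.0856% and ELOVL7 5.07 ± 0.294%. In K562, ELOVL5 held 64.2 ± 0.217%, ELOVL6 12.0 ± 0.401% and ELOVL2 0.471 ± 0.0499%. In batch 2 the share of ELOVL5 was 80.2 ± 1.64% in vehicle, 74.3 ± 1.47% in labelled resistant 1 and 66.0 ± 3.94% in labelled resistant 2, and that of ELOVL1 was 19.7 ± 1.63%, 6.93 ± 0.446% and 6.88 ± 1.41%. ELOVL7 there held 9.52 ± 0.0761% in labelled resistant 1 and 11.3 ± 0.581% in labelled resistant 2. The elongase sum was 74.5 ± 2.10 CPM per kb in vehicle and 131 ± 3.42 in labelled resistant 1 of batch 1, and 114 ± 1.73, 198 ± 9.07 and 165 ± 34.6 CPM per kb in vehicle, labelled resistant 1 and labelled resistant 2 of batch 2.

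SCD made up 57.0 to 74.4% of the desaturase sum in every group. FADS1 took 17.4 ± 0.170% in vehicle and 38.2 ± 0.273% in labelled resistant 1 of batch 1, and FADS2 11.3 ± 0.506% and 1.05 ± 0.0504%. In batch 2 FADS1 took 15.8 ± 1.04% in vehicle, 32.4 ± 3.59% in labelled resistant 1 and 23.8 ± 6.78% in labelled resistant 2, and FADS2 8.27 ± 0.587%, 0.714 ± 0.141% and 0.861 ± 0.0853%. Of the long-chain acyl-CoA synthetase sum, ACSL1 and ACSL5 held 58.2 ± 0.493% and 21.5 ± 0.321% in vehicle of batch 1 and 25.2 ± 0.120% and 1.86 ± 0.377% in labelled resistant 1, where ACSL4 (39.8 ± 0.886%) and ACSL3 (30.8 ± 0.476%) were the larger shares. In batch 2 ACSL1 was instead the largest share in all 3 groups, at 48.1 ± 2.62% in vehicle, 35.0 ± 3.28% in labelled resistant 1 and 40.6 ± 2.54% in labelled resistant 2. ACSL3 held 31.6 ± 0.690% and ACSL4 29.3 ± 3.07% in labelled resistant 1 of batch 2, with 31.2 ± 2.18% and 26.4 ± 2.79% in labelled resistant 2. The synthetase sum was 102 ± 2.72 CPM per kb in vehicle against 31.2 ± 0.839 in labelled resistant 1 and 25.3 ± 1.49 in K562. In batch 2 it was 127 ± 1.63 CPM per kb in vehicle, 49.5 ± 1.78 in labelled resistant 1 and 51.8 ± 2.60 in labelled resistant 2. No test was run on sums or shares.

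**Figure D4:**
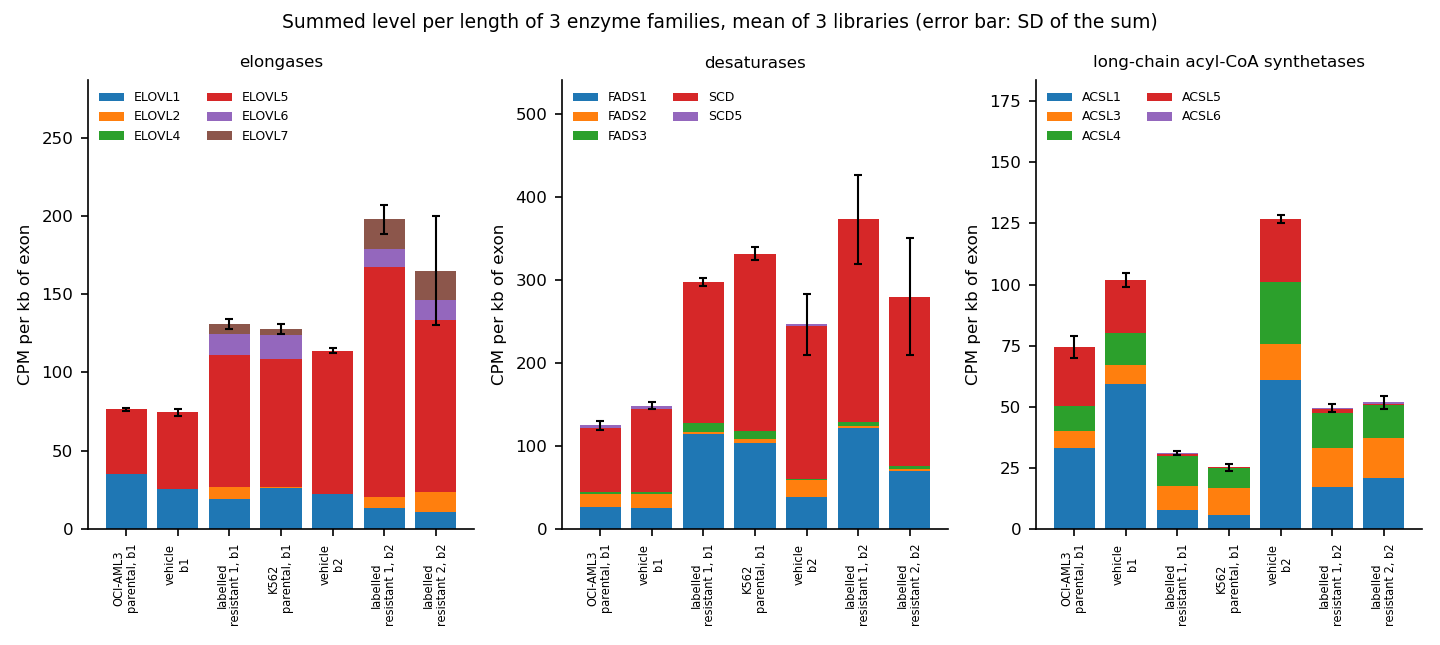
Stacked mean CPM per kilobase of exon of the elongases, desaturases and long-chain acyl-CoA synthetases in the 7 groups (3 libraries each), with an error bar of 1 SD on the sum. The elongase stack gains ELOVL6 and ELOVL7 in K562 and the labelled resistant groups. ELOVL2 joins them in the labelled resistant groups and holds 0.471% of the sum in K562. The synthetase stack is shorter in K562 and the labelled resistant groups, with a smaller ACSL1 segment and a thin one of ACSL5.

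Labelled resistant 1 against K562, both of batch 1, asks where libraries of such similar profile differed. Of 30 members tested, 12 were higher and 10 lower, beside 31.3% and 28.5% of all genes, with medians of 0.03 and 0.01. The larger differences were all upward. ELOVL2 was higher by 3.59 on the log2 scale, ACSL6 by 2.32 (SE 0.14, adjusted p = 5.16e-12), ACSL5 by 1.82 (SE 0.27, adjusted p = 6.81e-06), HACD1 by 1.08 (SE 0.27, adjusted p = 0.00164) and ELOVL7 by 0.84 (SE 0.086, adjusted p = 3.52e-08). ACACB was higher by 0.63 (SE 0.16, adjusted p = 0.00172), CBR4 by 0.61 (SE 0.069, adjusted p = 1.57e-07) and ACSL4 by 0.58 (SE 0.053, adjusted p = 6.62e-09). The 10 that were lower differed by 0.18 to 0.48, with FADS2 (-0.48), FASN (-0.46) and ELOVL1 (-0.43) the furthest. ACSL5 and ACACB lay between K562 and vehicle, and ELOVL2, ACSL6 and ELOVL7 lay beyond K562 on the side away from vehicle. The part of remaining OCI-AML3 RNA in these values was not tested, and HOXA9, MTAP and CDKN2A, all expressed in parental and vehicle, had 0 counts in these libraries.

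Labelled resistant 2 against labelled resistant 1 in batch 2 asks whether the 2 labelled biological replicates of the Res cells were alike. Of 32 members tested, 3 were higher (ELOVL2, ACSL6 and ACSF3) and 5 lower (ACSL5, ACACB, TECR, ACSS2 and HACD3), beside 12.4% and 11.9% of all genes, with medians of -0.12 and 0.00. ELOVL2 was higher by 0.95 (SE 0.13, adjusted p = 0.00015), ACSL6 by 0.66 (SE 0.21, adjusted p = 0.0363) and ACSF3 by 0.45 (SE 0.14, adjusted p = 0.0312). ACSL5 was lower at -2.13 (SE 0.15, adjusted p = 3.43e-07), ACACB at -1.63 (SE 0.20, adjusted p = 5.07e-05), TECR at -0.72 (SE 0.14, adjusted p = 0.00185), ACSS2 at -0.61 (SE 0.12, adjusted p = 0.00249) and HACD3 at -0.45 (SE 0.11, adjusted p = 0.0108). Same-numbered libraries of these groups deviated together (r = 0.23, 0.35 and 0.14). With the replicate number as a block 5 members were higher and 10 lower, beside 2282 and 2261 of all genes (1890 and 1816 without the block). The block added ACSL1 (0.28) and MCAT (0.49) to the higher and ACLY (-0.44), ACACA (-0.36), FADS1 (-0.88), ELOVL1 (-0.31) and ELOVL5 (-0.45) to the lower.

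Of these 8 calls, those of ELOVL2, ACSL5, ACACB, TECR and ACSS2 held with any 1 library left out, and those of ACSL6, ACSF3 and HACD3 did not. Without labelled resistant 2 replicate 2 there were 7 higher and 12 lower members, with SLC25A1 (-0.56), ACLY (-0.65), ACACA (-0.47), FASN (-0.45), SCD (-0.39), FADS1 (-1.35) and ELOVL5 (-0.66) among the lower and ACSL1 (0.33), MCAT (0.52), OXSM (0.41) and HSD17B12 (0.29) among the higher. Without labelled resistant 2 replicate 1 or 3, or labelled resistant 1 replicate 3, 1 member was higher. The call of ACSL6 ended without any 1 of these 3 libraries or labelled resistant 1 replicate 1 or 2 (0.60 to 0.72). That of ACSF3 ended without the same libraries except labelled resistant 1 replicate 1 (0.38 to 0.40) and with vehicle left out of the fit (0.43), and that of HACD3 without the first 3 (-0.39 to -0.41). DESeq2 called 5 members higher and 7 lower, beside 2212 and 2016 of all genes.

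Replicate 2 held the highest level of many members in the batch 2 groups and in K562 of batch 1, which was noticed after the values were seen. In labelled resistant 2 it was the highest of the 3 libraries for 17 of 32 members, beside 37.9% of all genes tested there. In labelled resistant 1 it was the highest for 16 of 32 members (38.2% of all genes), and in vehicle for 18 of 30 with counts (37.0%). In batch 1 replicate 2 was the highest for 16 of 31 members in K562 (38.2%) and 14 of 31 in parental (36.5%). It was the highest for 13 of 31 in labelled resistant 1 (38.8%) and 8 of 30 in vehicle (34%) of that batch. FADS1 (460.0, 1159 and 517 CPM), ELOVL5 (378, 548 and 331 CPM), SLC25A1 (101, 176 and 105 CPM) and FASN (163, 263 and 160.0 CPM) showed it in labelled resistant 2. INSIG1, an endoplasmic reticulum brake on sterol-driven lipogenesis, had 107, 161 and 65.2 CPM in the same 3 libraries. No source used here says what these libraries share besides their number.

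**Figure D5:**
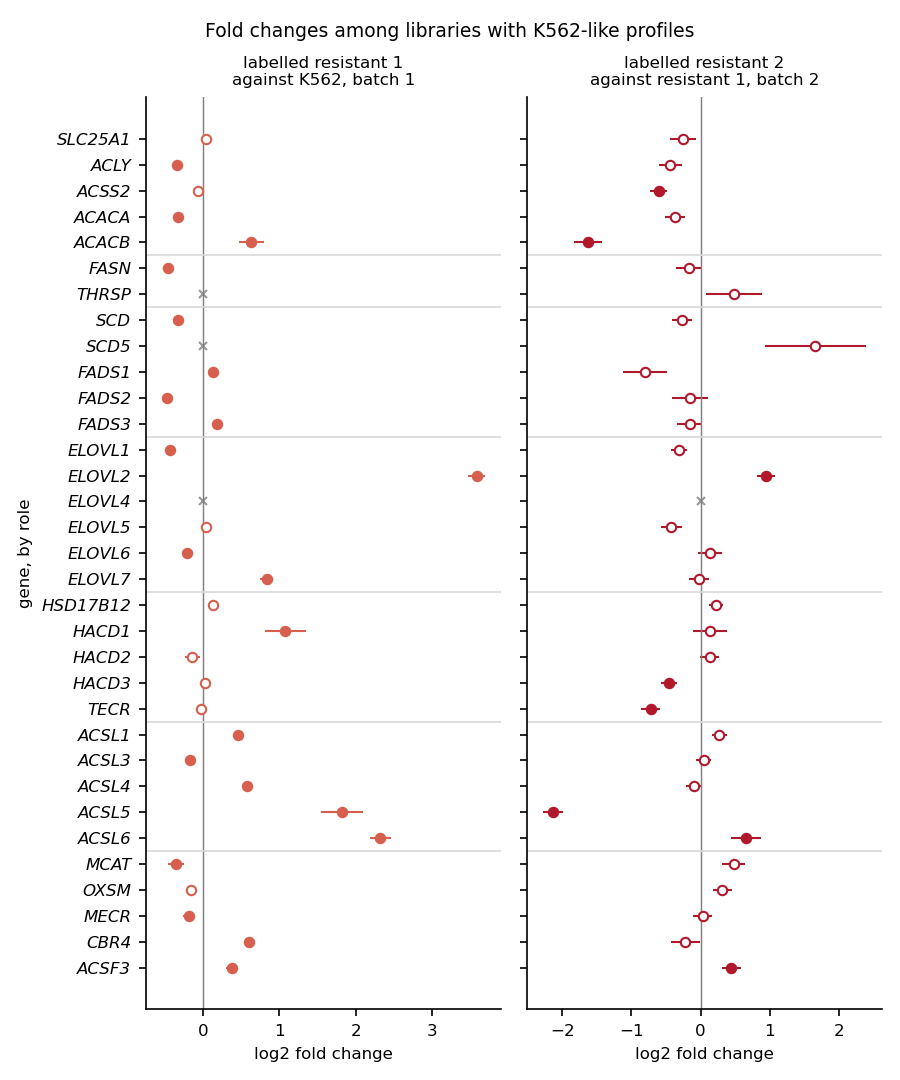
Fitted log2 fold change with its standard error for the 33 genes in labelled resistant 1 against K562 (left) and labelled resistant 2 against labelled resistant 1 (right), where filled circles passed an adjusted p of 0.05, open circles did not and crosses were not tested. ELOVL2, ACSL6 and ACSL5 are the furthest to the right on the left panel, and ACSL5 and ACACB the furthest to the left on the right panel.

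Vehicle against parental OCI-AML3 cells, both of batch 1, compares groups that both had the OCI-AML3 profile. Of 31 members tested, 9 were higher and 4 lower, beside 18.7% and 18.3% of all genes, with medians of 0.09 and 0.00. ACSL1 rose by 0.80 (SE 0.048, adjusted p = 4.42e-13), ACACB by 0.59 (SE 0.11, adjusted p = 0.000175) and SCD5 by 0.59 (SE 0.10, adjusted p = 4.45e-05). Smaller rises were those of CBR4 (0.38), SCD (0.32), ACSL4 (0.31), ACACA (0.23), ELOVL5 (0.21) and ACSL3 (0.16). ELOVL1 changed by -0.48 (SE 0.055, adjusted p = 1.16e-07), HACD2 by -0.21, ACSL5 by -0.17 and HACD3 by -0.16. Of the 4 falls, that of ELOVL1 passed in every alternative run, and the rise of ACSL3 ended without vehicle replicate 1 (0.15) or parental replicate 3 (0.13). Without vehicle replicate 1 or parental replicate 1 there were 2 lower members and without parental replicate 2 there was 1.

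The fold change of labelled resistant 1 against vehicle differed between batches for 16 of 32 members, 4 of them upward (ACSS2, ACACB, ACSL1 and ACSL5) and 12 downward in batch 2. Of all genes tested, 15% differed upward and 18.2% downward. With the replicate number as a block 17 members differed downward, beside 3127 of all genes (2773 without the block). Batch here is the sequencing batch of the labels, and the batches also differed in depth and in the erythroid marker sum given above.

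The genes around the pathway were taken as 7 lists, each given as the number called in labelled resistant 1 of batch 1, labelled resistant 1 of batch 2 and labelled resistant 2, all against vehicle. Beside these counts, 44%, 39.9% and 40.2% of all genes tested were called higher and 42.1%, 35.8% and 35.9% lower in the 3 comparisons, with medians of 0.02, 0.07 and 0.07, and 42.6% and 42.5% in K562 against parental. Of 12 regulators of lipogenic transcription (the SREBP, ChREBP and LXR systems), 2, 0 and 0 were higher and 8, 9 and 8 lower, with medians of -0.54, -0.51 and -0.69. SREBF2, the sterol-sensing transcription factor, changed by -0.69, -0.71 and -0.95 and NR1H3, the liver X receptor alpha, by -1.60, -1.11 and -0.73. Of these 12, 4 were higher and 6 lower in K562 against parental. Of 5 genes of NADPH supply, 4, 2 and 2 were higher and 1, 0 and 1 lower, and PGD of the pentose phosphate pathway rose by 1.84, 1.55 and 1.39. K562 against parental had 3 of the 5 higher and 1 lower. Of 5 AMPK subunits tested out of 6, 2, 3 and 2 were higher and 2, 2 and 2 lower, with PRKAB1 (2.17, 2.72 and 2.34) and PRKAB2 (0.83, 1.76 and 2.16) up and PRKAG2 (-2.27, -2.25 and -1.66) and PRKAA1 (-1.38, -1.54 and -1.73) down. K562 against parental had 2 of the 5 higher and 2 lower.

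Against the same shares of all genes, fatty acid oxidation had 5, 5 and 4 genes higher and 8, 6 and 8 lower of 15, 14 and 14 tested, and 4 higher and 9 lower of 15 in K562 against parental. CPT1A, the gate of mitochondrial import, rose by 2.41, 2.95 and 2.00 and ACADS by 0.42, 0.99 and 0.98, while ACADVL changed by -0.81, -0.68 and -0.97 and ECHS1 by -0.48, -0.97 and -0.89. Uptake and binding had 4, 2 and 3 of 10 genes tested higher and 5, 6 and 6 lower, and 5 of each in K562 against parental. The fatty acid translocase CD36 changed by -8.78, -11.40 and -9.24 and the lipoprotein receptor VLDLR by -7.94, -4.09 and -3.25, while the very long-chain synthetases SLC27A2 (3.76, 3.40 and 3.80) and SLC27A5 (1.22, 0.96 and 1.27) rose. Triglyceride synthesis and lipid droplets had 8, 7 and 6 genes higher and 6, 4 and 5 lower of 15, 14 and 14 tested, and 8 higher and 7 lower of 15 in K562 against parental. Among them were GPAT3 (5.40, 6.57 and 6.43) and ABHD5 (2.52, 1.79 and 1.74) up and DGAT2 (-2.54, -2.82 and -3.70) and AGPAT2 (-1.61, -1.34 and -0.90) down.

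Phospholipid acyl remodelling, which exchanges the chains of finished phospholipids, had 4, 3 and 3 of 8 genes higher and 3, 5 and 4 lower, beside the shares of all genes above, and 4 higher and 3 lower in K562 against parental. LPCAT1 changed by -3.13, -4.47 and -3.91 and LPCAT4 by -1.49, -1.62 and -1.89, while MBOAT2 rose by 2.43, 1.65 and 2.02 and MBOAT7, which places arachidonate in phosphatidylinositol, by 0.94, 1.05 and 0.98. In K562 against parental each of the genes named from the 7 lists had the same sign except PRKAB2 (-0.11). Of the named genes, CD36 (-4.27), PRKAG2 (-1.20) and DGAT2 (1.01) differed by 1 or more between labelled resistant 1 and K562. VLDLR had too few counts in these 2 groups to be tested there.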

How the data were processed

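RNA was prepared with a Qiagen RNeasy kit, made into strand-specific libraries with the Kapa mRNA HyperPrep kit and sequenced as paired ends on a NovaSeq6000, per the labels' protocols. The authors deposited raw counts per gene in 1 table for each of the 2 batches. The genome build was hg38 and the VIPER pipeline and DESeq2 1.22.1 were named, per the submitters' processing notes. No source used here states the strand setting of the counting, the annotation or the aligner's version.

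Each batch was fitted on its own, and the difference between batches in 1 joint fit, with the edgeR 4.0.16 quasi-likelihood test in R 4.3.3 (TMM scaling, low-count filter, Benjamini-Hochberg adjustment over all genes tested, threshold 0.05). Standard errors were the fold change divided by the square root of its F statistic, and they can understate counting error where 1 group had few counts. CPM were TMM-scaled within a batch, so levels are not compared across batches. DESeq2 1.42.0, other scaling, no low-count filter, other fits, a replicate block and leaving out each library were alternatives. The scripts were tested on simulated data. Bounds took a floor of 3 counts over a group, and 95% intervals and floors cover counting error only. Gene positions, lengths and overlaps come from GENCODE release 44 on hg38, and promoters from RefSeq on GRCh38.p14. All table columns matched a sample.

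Members and lists were chosen with earlier results of these data known. Values in every library are given for members called against vehicle with the same sign and a log2 fold change of at least 1 in all 3 comparisons, called against K562 with at least 0.5, called in vehicle against parental or in labelled resistant 2 against 1, or called with opposite signs against vehicle, which made 23 of 33. From each pathway list up to 2 higher and 2 lower genes were named by size of change. Of the genes these rules name outside the members, 1 is not reported here. Whether the 3 libraries of a group came from separate cultures is not given, so p-values measure the spread between libraries, which may be technical. Same-numbered libraries deviated together in every pair for labelled resistant 1 and vehicle of batch 2 (r = 0.17, 0.21 and 0.15) and for labelled resistant 2 and 1 (r = 0.23, 0.35 and 0.14). This pairing comes from the data, as no label says what a number shares.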

Additional observations from a re-analysis of the deposited data

Results flagged for a closer look

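The fold change of labelled resistant 1 against vehicle differed between batches, by the edgeR test of the difference itself, for 16 members. As batch 2 minus batch 1 on the log2 scale, the difference was positive for ACACB (2.22), ACSL5 (1.15), ACSL1 (0.98) and ACSS2 (0.65). For ACSL5 and ACSL1 this was a smaller fall in batch 2. The difference was negative for HACD1 (-2.61), MCAT (-1.04), ACSL4 (-0.87), ACACA (-0.82) and FASN (-0.75), which for FASN was a larger fall in batch 2. Differences of the same sign were those of FADS1 (-0.60), HACD2 (-0.57), SCD (-0.48), FADS3 (-0.48), ACSF3 (-0.42), ELOVL1 (-0.41) and ACSL3 (-0.36). The calls of FADS3 and ACSF3 ended in 11 and 8 of 16 alternatives.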

How the results depend on the processing

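Of 3134 alternative values for 235 results, 2995 kept their direction and side of the threshold, 81 lost the call, 36 gained it and 22 changed sign. With the replicate block, labelled resistant 2 against 1 had 5 higher and 10 lower members in place of 3 and 5 (all genes 2282 and 2261 in place of 1890 and 1816). The batch difference had 17 lower in place of 12 (all genes 3127 in place of 2773). For labelled resistant 2 against 1, DESeq2 gave 5 higher. Leaving out 1 library gave 1 to 7 higher and 4 to 12 lower members in labelled resistant 2 against 1 (all genes 1117 to 2505 and 1206 to 2309). It gave 1 to 4 lower in vehicle against parental. In the other comparisons the block ended 1 member's call, that of MECR against K562 (-0.19, adjusted p = 0.0611).

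Every change of sign was in a value that missed the threshold. Values below are the lowest and highest log2 fold change with 1 library left out, and the cause was not tested. For labelled resistant 1 against vehicle they were -0.035 to 0.067 for ACSL4 in batch 1 (also -0.0077 with only the groups compared) and -0.17 to 0.080 for ACACA in batch 2. For labelled resistant 2 against vehicle they were -0.077 to 0.093 for HACD3 and -0.15 to 0.26 for CBR4. For labelled resistant 2 against 1 they were -0.45 to 0.14 for FADS2, -0.19 to 0.060 for ELOVL7, -0.058 to 0.18 for MECR, -0.056 to 0.10 for ACSL3 and -0.49 to 0.039 for CBR4. For vehicle against parental they were -0.10 to 0.046 for MCAT, -0.017 to 0.13 for HSD17B12 and -0.11 to 0.0012 for TECR. Against K562 they were -0.087 to 0.021 for TECR and -0.026 to 0.073 for SLC25A1. Genes with few counts, such as THRSP, ELOVL4 and HACD1, are limited by depth.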

Other observations

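Relatives of the members that were not on the list included genes nearly restricted to some groups. ACSM3, a mitochondrial medium-chain acyl-CoA synthetase, averaged 1.09 ± 0.281 CPM (SD, n = 3) in vehicle and 328 ± 10.6 CPM in labelled resistant 1 of batch 1, with 85.5 ± 3.14 CPM in K562. In batch 2 ACSM3 averaged 1.05 ± 0.112 CPM in vehicle, 1400.2 ± 234 CPM in labelled resistant 1 and 470.1 ± 91.0 CPM in labelled resistant 2, and its log2 fold changes against vehicle were 8.32, 10.38 and 8.81. HACD4, a further dehydratase of the elongation cycle (chr9:20999509-21031640), averaged 35.8 ± 3.10 CPM in vehicle of batch 1. It had 0 counts in K562 and in all 9 libraries labelled resistant. MTAP (chr9:21802636-21937651) and CDKN2A (chr9:21967752-21995301), on the same chromosome, also had 0 counts in those libraries. A shared reason was not tested. HACD4 was at least 658-fold, 1235-fold and 1408-fold lower than in vehicle in labelled resistant 1 of batch 1, of batch 2 and in labelled resistant 2, and at least 826-fold lower in K562 than in parental. ACSBG1, an acyl-CoA synthetase of the bubblegum family, had 0 counts in all vehicle and parental libraries and was at least 25.3-fold, 65.2-fold and 47.6-fold higher in the same 3 groups. ACSS1, the mitochondrial acetyl-CoA synthetase, changed by -0.54, -0.78 and -1.30 against vehicle and by -3.37 in K562 against parental, so labelled resistant 1 of batch 1 was above K562 by 3.17 on the log2 scale.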
